A study of Mus musculus with 24 samples.

Results

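Cholinergic signalling was followed through 9 genes of the 21833 protein-coding genes in the deposited mouse RNA-seq table, taken as the rows whose gene name equals Chrna3, Chrna5, Chrnb4, Chrna7, Chrnb2, Chat, Slc18a3, Slc5a7 or Ache. The first 5 code for subunits of neuronal nicotinic acetylcholine receptors, and the other 4 make, load, recover or break down acetylcholine. All 9 were found, and 5 of them (Chrna3, Chrnb4, Chrnb2, Slc18a3 and Ache) reached 1 FPKM in at least 3 of 24 libraries and were tested along with all other genes that did so, 10171 in total. FPKM scales the fragments of a gene by its length in kilobases and by the library size in units of 1000000. Levels can thus be compared between genes of a library, as far as the lengths used hold. These were 4505 bases for Chrna7 and 3126 for Chrna5, whose annotated exons cover 10208 and 6451. For Chrnb2 they were 8380 and 8450. Comparisons between groups, and of AGM with AG above all, depended on the scaling, and RPM, the reads per 1000000 reads outside genes above 1000 FPKM, are given beside FPKM.

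Neuronal nicotinic receptors are ion channels of 5 subunits that open when acetylcholine binds. Receptors built from the α3 subunit with β4, and in part α5 or β2, carry synaptic input to sympathetic ganglion neurons and to the chromaffin cells of the adrenal medulla, where they trigger catecholamine release. Acetylcholine itself is made by choline acetyltransferase (Chat), loaded into vesicles by the vesicular acetylcholine transporter (Slc18a3), cleaved by acetylcholinesterase (Ache), and its choline is taken back up by the high-affinity choline transporter (Slc5a7). Sympathetic neurons are mostly noradrenergic, and a minority switches to the cholinergic set.

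AG were adrenal glands of CRE - mice (n = 3). AGM were adrenal glands of mice labelled MYCN +/-, CRE + (n = 5). TI were tumors of mice with the IGF2BP1 transgene and CRE + (n = 8, of which 7 were labelled +/+ and 1 +/-, and 1 was a tumor of the adrenal gland). TIM were tumors of mice labelled IMP1/MYCN, CRE + (n = 8, of which 2 came from the adrenal gland and 1 from the spine), IMP1 being another name for IGF2BP1. Both transgenes sat in the Rosa26 locus behind a loxP-flanked stop cassette that was removed by an iCRE driven by the Dbh promoter, which is active in noradrenergic and adrenergic cells, and the mice were backcrossed to C57Bl6/N. The IGF2BP1 transgene lacks its 3′ untranslated region. The labels give no age, and no mouse per sample. The study reports that its MYCN mice were culled later than its homozygous IGF2BP1 mice. Median survival was shorter in IGF2BP1/MYCN mice than in homozygous IGF2BP1 mice. Age may therefore differ between AGM, TI and TIM, and its part in the results was not tested. The study's methods call individual mice the biological replicates of its transgenic mouse experiments.

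The sequences before the starts of 6 genes are shown, those of Chrna3 and Slc18a3, which varied together among the tumors, of Chrnb2, which separated tumors from glands, and of Ache, Chat and Chrna7, which hold the letters CACGTG. The window of Chrnb4 is not shown, since 248 of its 250 bases lie in annotated exons of the gene. Each is RefSeq promoter sequence of GRCm38.p6, found once in GRCm39, whose coordinates are given, and trimmed to bases outside the annotated exons of its own gene, except for Ache, where 30 bases inside an annotated exon hold the motif. Capitals mark CACGTG and GGGCGG on either strand, and the match of Chrna3 lies in its trimmed bases.
Chrna3 (chr9:54933942-54934096, minus strand): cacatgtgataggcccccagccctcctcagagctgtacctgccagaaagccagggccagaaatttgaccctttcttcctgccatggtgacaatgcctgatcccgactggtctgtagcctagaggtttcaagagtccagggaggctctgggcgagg
Slc18a3 (chr14:32186808-32187057, minus strand): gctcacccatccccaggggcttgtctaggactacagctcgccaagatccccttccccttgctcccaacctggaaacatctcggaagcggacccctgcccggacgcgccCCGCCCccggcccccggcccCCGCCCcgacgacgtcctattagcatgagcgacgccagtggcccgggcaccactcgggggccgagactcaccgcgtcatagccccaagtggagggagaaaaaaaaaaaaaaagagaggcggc
Chrnb2 (chr3:89671954-89672189, minus strand): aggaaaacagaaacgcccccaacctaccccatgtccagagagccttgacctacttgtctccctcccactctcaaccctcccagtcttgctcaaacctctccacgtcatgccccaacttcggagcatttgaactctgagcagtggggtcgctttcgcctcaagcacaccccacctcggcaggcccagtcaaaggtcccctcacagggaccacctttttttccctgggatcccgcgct
Chat (chr14:32187947-32188116, minus strand): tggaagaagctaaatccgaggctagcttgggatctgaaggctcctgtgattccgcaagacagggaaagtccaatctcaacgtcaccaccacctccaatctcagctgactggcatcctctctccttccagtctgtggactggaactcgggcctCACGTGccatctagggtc
Chrna7 (chr7:62862323-62862524, minus strand): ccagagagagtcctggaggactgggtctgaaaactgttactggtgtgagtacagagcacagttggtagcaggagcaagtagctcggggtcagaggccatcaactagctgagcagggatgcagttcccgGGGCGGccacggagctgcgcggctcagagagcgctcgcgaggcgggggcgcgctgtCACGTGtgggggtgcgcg
Ache (chr5:137286305-137286334, plus strand): cggtccgtctgtCACGTGggtgtctgcccc

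In the 250 bases before their RefSeq starts, 3 of the 9 genes (Ache, Chat and Chrna7) held CACGTG, and 6.02% of all 32851 such windows held it. CACGTG is a palindromic form of the E-box that proteins of the MYC family can bind. Other forms of the E-box (CANNTG, with N any base) were not searched. GGGCGG, the GC box, stood on either strand in 5 of the 9 (Ache, Chrna3, Chrna5, Chrna7 and Slc18a3), against 32.7% of all windows. The windows of these genes that held it had 63.2% to 73.6% G or C, against a median of 52.4% over all windows. Members were counted by gene, Chrna5 having more than 1 window, and the background by window. These matches describe letters and carry no measurement of binding.

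The libraries held 12334076 to 23683176 recovered reads outside the 126 genes that exceeded 1000 FPKM in some library, after the authors' batch correction, and 6287 to 7500 genes reached 1 FPKM. With those 126 genes, the totals were 17434796 to 17893013 in AG and 12468968 to 21353172 in TI. They were 116740738 to 1170004708 in AGM and 58530450 to 888626365 in TIM, so most recovered reads of AGM and TIM lay in those genes. The cause was not tested. All AG samples belonged to sequencing run 1 and all AGM samples to run 2. Of TI, 6 samples came from run 1, 1 from run 2 and 1 from run 3. TIM held 3 samples of run 2, 5 of run 3 and none of run 1. For AG against AGM or TIM, run and group cannot be told apart, and for TIM against TI they largely go together. The columns name the group alone, so no value within a run could be set, and libraries are numbered here by their order in the table within a group. Adrenal cortex markers (9 genes) summed to 675 to 704 FPKM in AG glands, 4332 to 5433 in those of AGM and 0.493 to 13.6 in the tumors. Sympathetic neuroblast markers (8 genes) summed to 2.73 to 10.2 FPKM in the glands and 91.5 to 415 in the tumors. In bulk tissue, fewer cells of a type and less RNA per cell cannot be told apart. The mouse Igf2bp1 row stayed at or below 0.0796 FPKM in every library, and mouse Mycn lay at 0.559 to 1.19 FPKM in the glands, 1.57 to 15.6 in TI and 1.20 to 4.38 in TIM. These rows do not measure the transgenes, and so check the labels little. TI library 6 stood apart, with the highest chromaffin marker sum of TI (1678 FPKM against 94.3 to 451 in the other 7) and the lowest neuroblast sum (91.5 FPKM).

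**Figure D1:**
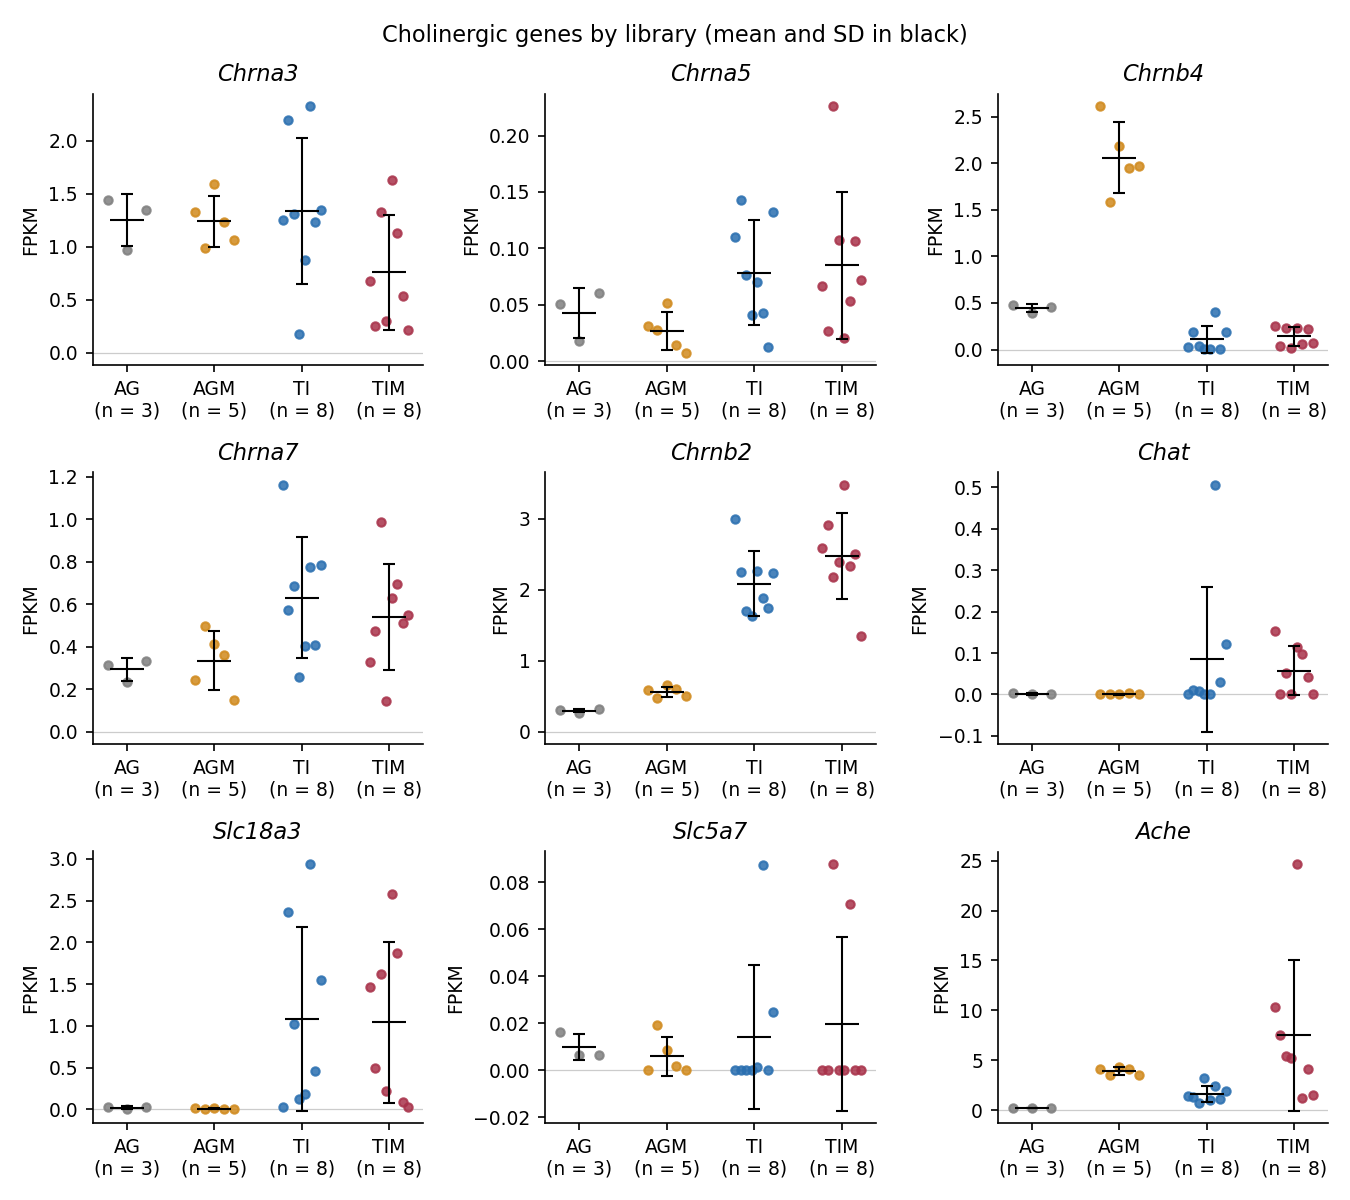
FPKM of each of the 9 cholinergic genes in every library, by group (AG n = 3, AGM n = 5, TI n = 8, TIM n = 8), with points for libraries and the mean and SD of each group in black. Chrnb2 lies between 1.36 and 3.48 FPKM in the tumors and at most 0.654 in the glands, while Chrnb4 is highest in AGM, between 1.59 and 2.62.

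The Chrna5, Chrna3 and Chrnb4 genes sit side by side on chromosome 9 (GRCm39, Chrna5 at chr9:54888164-54918184 on the plus strand, Chrna3 at chr9:54917395-54933941 and Chrnb4 at chr9:54935438-54956076 on the minus strand). The cluster spans 67913 bases and leaves 1496 between Chrna3 and Chrnb4. Its members did not move together between groups. Chrnb4 was high in AGM and low in tumors, Chrna3 had about the same FPKM in AG, AGM and TI, and Chrna5 was low throughout.

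Chrnb4 codes for the β4 subunit, the partner of α3 in ganglion-type receptors. It was at 0.478, 0.395 and 0.456 FPKM in the AG libraries, and at 2.62, 1.59, 2.18, 1.95 and 1.97 FPKM in AGM. In TI the lowest, median and highest values were 0.00360, 0.0345 and 0.405 FPKM, and in TIM 0.0161, 0.148 and 0.256 FPKM. Every AGM library was above every AG library, every TIM library below every AG library, and 7 of 8 TI libraries below every AG library, the exception being TI library 6. The mean rose from 0.443 ± 0.0427 FPKM (SD, n = 3) in AG to 2.06 ± 0.378 (SD, n = 5) in AGM, 1.08 higher on the log2(FPKM + 1) scale (SE 0.12, limma FDR = 1.80e-07). In RPM, the AGM mean was 3.40 times that of AG (exact permutation p = 0.0179, which is also the limit of a test with 3 and 5 libraries). Compared with AG, Chrnb4 was lower by 0.39 in TI (SE 0.11, limma FDR = 0.00426) and by 0.34 in TIM (SE 0.11, limma FDR = 0.0108). The scale understates the change of so low a gene, and the mean RPM of TI and TIM were 0.249 and 0.282 of AG, that of TI 0.148 without TI library 6. TI and TIM differed by 0.05 (SE 0.08, limma FDR = 0.729). Without TI library 6 the TI vs AG difference was -0.44 (limma FDR = 0.000611). Between TIM and AGM the difference was -1.42 (SE 0.09, limma FDR = 4.13e-12). Only AGM brought Chrnb4 past the filter, so its difference from other groups was to some extent set by the filter. The AGM glands also held higher sums of chromaffin markers (1454 to 2505 FPKM against 129 to 188 in AG) and of cortex markers, and their part in the result was not tested.

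Chrna3, the α3 subunit, showed no such order. Chrna3 lay at 1.44, 0.971 and 1.35 FPKM in AG and at 1.33, 0.984, 1.59, 1.23 and 1.07 FPKM in AGM. TI ranged from 0.175 through a median of 1.28 to 2.33 FPKM, and TIM from 0.215 through 0.606 to 1.63 FPKM. All groups overlapped, but 5 of 8 TIM libraries were below every AG and AGM library. Its log2(FPKM + 1) difference was -0.00 in TI vs AG (SE 0.25, limma FDR = 0.9999), -0.01 in AGM vs AG (SE 0.27, limma FDR = 0.996, with a mean RPM 0.725 of AG, exact permutation p = 0.125, adjusted p = 0.208) and -0.41 in TIM vs AG (SE 0.25, limma FDR = 0.181). TIM vs TI gave -0.41 (SE 0.19, limma FDR = 0.113). That comparison passed without TI library 4, the TI library with the least Chrna3, at -0.54 (limma FDR = 0.0186). TIM vs AGM gave -0.40 (SE 0.21, limma FDR = 0.0998), and -0.49 without TIM library 5, the TIM library with the most Chrna3 (limma FDR = 0.0375). It was also called, at -0.51, without TIM libraries 1 and 5 (limma FDR = 0.0436).

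Chrna5, an accessory subunit that changes the properties of α3-containing receptors, stayed below the filter, with at most 67 recovered reads. Its values were 0.0507, 0.0182 and 0.0603 FPKM in AG, and 0.0316, 0.0279, 0.0518, 0.0148 and 0.00764 FPKM in AGM. In TI they ran from 0.0128 through 0.0733 to 0.143 FPKM and in TIM from 0.0211 through 0.0691 to 0.226 FPKM. Of the 8 libraries in each tumor group, 5 were above every AG library. TIM exceeded AGM 3.798 times in mean RPM (exact permutation p = 0.0404, 0.202 after Benjamini-Hochberg adjustment over its 5 comparisons). The 3′ ends of Chrna5 and Chrna3 share 790 exonic bases on opposite strands, and the strand setting of the counting was not given in the sources used here, so some reads of Chrna3, which had 100 to 1293 per library, could have been assigned to Chrna5 or lost.

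The cluster's summed level was 1.74 ± 0.312 FPKM (SD, n = 3) in AG, 3.33 ± 0.570 (n = 5) in AGM, 1.53 ± 0.822 (n = 8) in TI and 0.985 ± 0.618 (n = 8) in TIM. Chrnb4 made up a median of 24.4% of that sum in AG and 61.0% in AGM, but 3.07% in TI and 12.7% in TIM. The ranges of its share were 24.3% to 28.6% for AG, 57.1% to 65.8% for AGM, then 0.288% to 14.6% for TI and 3.76% to 25.7% for TIM. Chrna3 held a median of 72.3% in AG, 37.9% in AGM, 88.4% in TI and 72.8% in TIM. These shares are descriptions of summed FPKM and not of protein subunits.

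**Figure D2:**
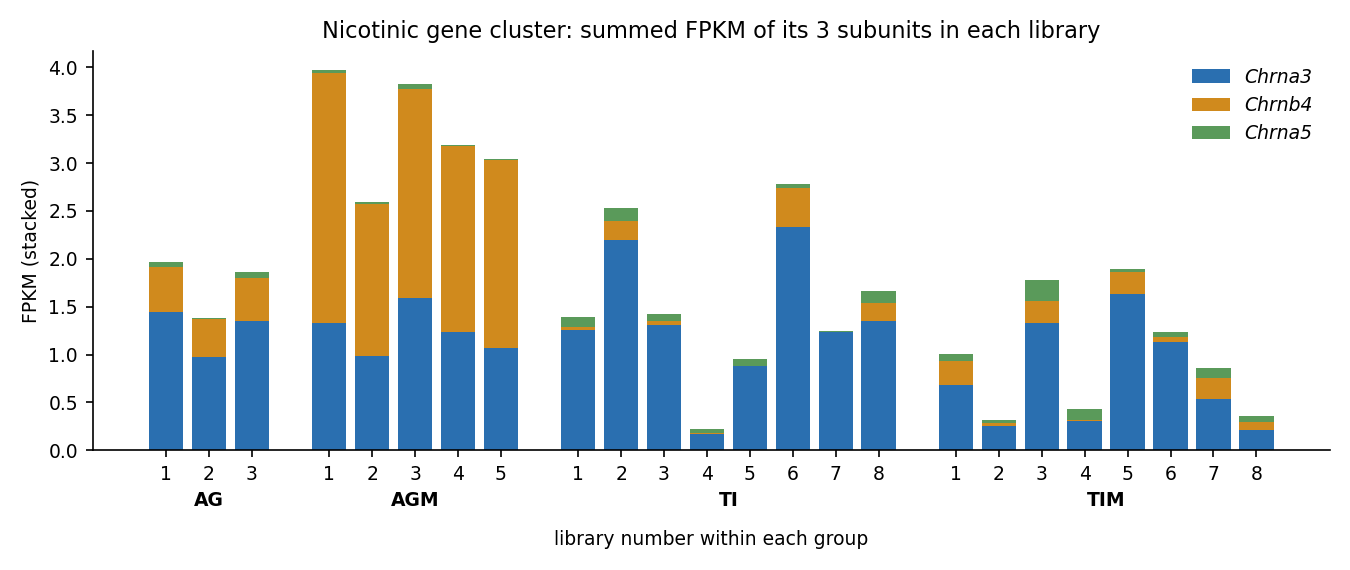
Summed FPKM of Chrna3, Chrnb4 and Chrna5, stacked by gene, for each of the 24 libraries by group (AG, AGM, TI, TIM). Chrnb4 takes 57.1% to 65.8% of the sum in the 5 AGM libraries and at most 14.6% in the 8 TI libraries.

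Chrnb2 (chr3:89653502-89671953, minus strand) codes for the β2 subunit, which forms the main high-affinity receptor of brain with α4 and also joins α3 in ganglia. It was the member that separated tumors from glands most evenly. AG held 0.301, 0.271 and 0.324 FPKM, and AGM 0.586, 0.478, 0.654, 0.601 and 0.507. TI ran from 1.62 through a median of 2.06 to 2.997 FPKM, and TIM from 1.36 through 2.45 to 3.48. No tumor library overlapped any gland library. The share of all tested genes without such overlap was not counted, here or for the other members. Group means were 0.299 ± 0.0265 (SD, n = 3) in AG, 0.565 ± 0.0716 (n = 5) in AGM, 2.09 ± 0.452 (n = 8) in TI and 2.47 ± 0.606 FPKM (n = 8) in TIM. The difference on the log2 scale was 1.24 in TI vs AG (SE 0.14, limma FDR = 8.63e-08), 1.40 in TIM vs AG (SE 0.14, limma FDR = 1.26e-08) and 1.13 in TIM vs AGM (SE 0.12, limma FDR = 1.64e-08). In mean RPM, TI and TIM stood at 6.93 and 7.36 times AG. It passed the filter through the tumor groups alone. AGM exceeded AG by 0.27 (SE 0.15, limma FDR = 0.183), and in FPKM all 5 AGM libraries were above the 3 AG libraries. In RPM they overlapped, with AGM library 5 at 15.0 between the AG libraries at 13.8 and 15.6. The comparison was called with a pseudocount of 0.1 (limma FDR = 0.0161) and with the spread of only these groups (limma FDR = 0.000836), and not with recomputed FPKM (limma FDR = 0.241), voom (limma FDR = 0.309), median-of-ratios scaling (limma FDR = 0.0938) or the exact permutation of RPM (adjusted p = 0.112). The TIM vs TI difference was 0.16 (SE 0.10, limma FDR = 0.261), and without TIM library 8, which had the lowest Chrnb2 of TIM, it was 0.24 (limma FDR = 0.0437). The 3′ end of Chrnb2 shares 1365 exonic bases with Adar on the opposite strand, and Adar had 1.73 to 2.20 FPKM in the glands and 1.27 to 3.98 in the tumors.

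Chrna7 (chr7:62731494-62862322, minus strand) codes for the α7 subunit, which assembles into homomeric, calcium-permeable receptors. It exceeded 1 FPKM in 1 library only, TI library 1. AG had 0.317, 0.234 and 0.333 FPKM, and AGM 0.246, 0.5004, 0.415, 0.361 and 0.148. TI ranged from 0.259 through 0.629 to 1.16 FPKM and TIM from 0.145 through 0.530 to 0.987. Of the 8 TI libraries 7 were above every AG library, and of the 8 TIM libraries 6. The mean RPM of TI were 2.15 times AG (exact permutation p = 0.0788, adjusted p = 0.197), and of TIM 1.95 times AGM (exact permutation p = 0.0575, adjusted p = 0.197). Neither passed after adjustment over the 5 comparisons of the gene.

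Slc18a3 and Chat form a nested pair on chromosome 14, on the minus strand. Slc18a3 is a gene without introns (chr14:32184395-32186807, 2413 bases) inside an intron of Chat (chr14:32129369-32187946), and they share 0 exonic bases. A noncoding gene, Litchi, runs over them on the other strand. In the glands, both were near the limit of detection, with at most 9 recovered reads of Slc18a3 and 2 of Chat in a library. In the tumors they ranged from the level of the glands to 748 reads of Slc18a3 and 251 of Chat.

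Slc18a3 was at 0.0348, 0.00394 and 0.0312 FPKM in AG, and at 0.0153, 0.00903, 0.0155, 0 and 0.00990 in AGM. TI ran from 0.0273 through a median of 0.746 to 2.94 FPKM, and TIM from 0.0279 through 0.977 to 2.58. In each tumor group 7 of 8 libraries were above every AG library, and all 8 TIM libraries were above every AGM library. The tumor with the least, TI library 1, had 8 reads and the tumor with the most, TI library 6, had 748. The difference was 0.86 in TI vs AG (SE 0.39, limma FDR = 0.0705), 0.85 in TIM vs AG (SE 0.39, limma FDR = 0.0735) and 0.87 in TIM vs AGM (SE 0.33, limma FDR = 0.0246). Of these the last alone was called, and it was not with voom on recovered reads (limma FDR = 0.102), by the exact permutation of RPM (adjusted p = 0.0738) or without TIM libraries 1 and 5 (limma FDR = 0.0903). TI vs AG and TIM vs AG were called with a pseudocount of 0.1 (limma FDR = 0.0217 and 0.0225), and with FPKM recomputed without the genes above 1000 FPKM (limma FDR = 0.0279 and 0.0362). TI vs AG was also called without TI library 1 or TI library 4 (limma FDR = 0.0382 and 0.0444), and TIM vs AG without TIM library 7 or TIM library 8 (limma FDR = 0.0446 and 0.0387). TI and TIM differed by -0.00 (SE 0.29, limma FDR = 0.9999). Without TI library 6 the TI vs AG difference was 0.70 (limma FDR = 0.116). As with Chrnb2, the tumors brought this gene past the filter.

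Chat had 2, 0 and 0 reads in AG and at most 1 read in AGM. In TI its reads ran from 0 through 4.5 to 251 (0 to 0.506 FPKM) and in TIM from 0 through 23 to 77 (0 to 0.154 FPKM). It was above every gland library in 5 of 8 TI and 5 of 8 TIM libraries, and at 0 reads in the other 3 of each group. No comparison passed the exact permutation test, with TIM vs AGM at p = 0.0909 (adjusted p = 0.455) and TI vs AG at p = 0.394 (adjusted p = 0.657). Of the 328 Chat reads in TI, 251 were in TI library 6, and without it the TI mean exceeded AG by 0.70 RPM (exact permutation, adjusted p = 0.554) in place of 2.51.

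Slc5a7 (chr17:54580020-54606076, minus strand) was the lowest of the 9 genes in tumors. AG held 10, 4 and 4 reads and AGM 0, 10, 4, 1 and 0. TI had 0 reads in 5 libraries and 52 in the highest, and TIM 0 reads in 6 libraries and 47 in the highest. Only TI libraries 6 and 8 and TIM libraries 3 and 6 exceeded every AG library, at 0.0874, 0.0250, 0.0879 and 0.0708 FPKM. None of its comparisons passed the exact permutation test, the lowest p being 0.339 in AGM vs AG (adjusted p = 1). Without TI library 6 the sign of TI vs AG turned, from 0.17 to -0.21 RPM, and without TIM library 3 that of TIM vs AG turned from 0.29 to -0.02.

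Taking 10 reads as detection, Slc18a3 was detected in 14 of 16 tumors, Chat in 8 and Slc5a7 in 4. Every tumor with Chat also had Slc18a3, and every tumor with Slc5a7 had both others. The full set was thus present in 4 tumors, TI libraries 6 and 8 and TIM libraries 3 and 6, and in no gland. Slc5a7 alone reached 10 reads in 1 AG and 1 AGM library, where Slc18a3 and Chat did not. A library with 0 reads allows up to 3, which is close to the level of the lower tumors for Slc5a7 and Chat. Of the 4 markers of motor neurons, another cholinergic cell type, that are not members, Mnx1 was at 0 in all 24 libraries and Isl2 and Lhx3 at no more than 0.175 and 0.708 FPKM. Slit3, which the glands held at 0.971 to 1.55 FPKM, ran from 1.96 to 9.68 FPKM in TI and from 1.17 to 3.62 FPKM in TIM. It was 0.99 higher in TI than AG (SE 0.28, limma FDR = 0.00504), and TIM vs TI gave -0.74 (SE 0.21, limma FDR = 0.0135). With Slc18a3 and Chat included, the 6 markers summed to 1.44 to 2.14 FPKM in the glands, 2.94 to 13.2 in TI, where library 6 was highest, and 1.20 to 5.18 in TIM, and their part in the levels of the 3 genes was not tested.

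**Figure D3:**
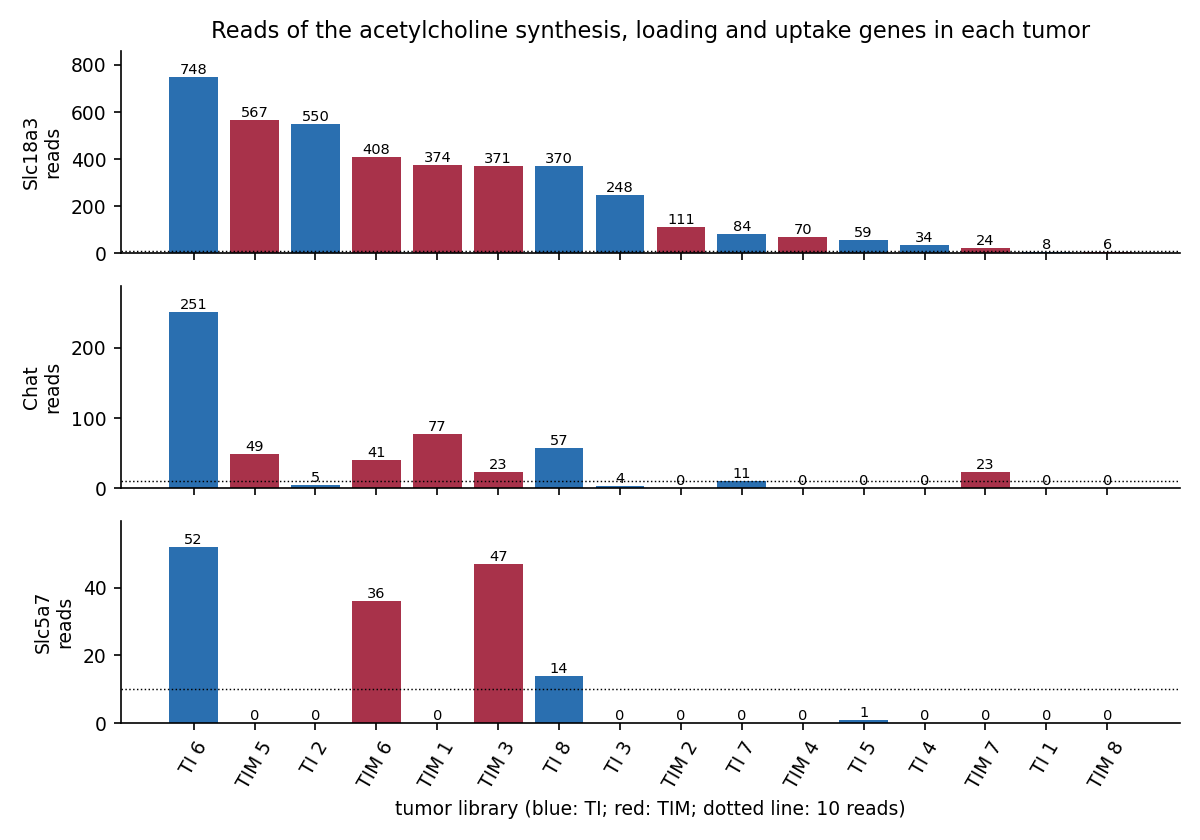
Recovered reads of Slc18a3, Chat and Slc5a7 (bars, linear axes that start at 0) in each of the 16 tumors, in the order of their Slc18a3 reads, with TI in blue, TIM in red and a dotted line at 10 reads. Slc18a3 passes the line in 14 of 16 tumors, Chat in 8 and Slc5a7 in 4, and 4 tumors pass it for all 3 genes.

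Ache (chr5:137285781-137292728, plus strand) codes for acetylcholinesterase, the enzyme that ends the signal. It was low in AG, at 0.232, 0.199 and 0.212 FPKM, and at 4.14, 3.53, 4.35, 4.19 and 3.55 FPKM in AGM. TI ran from 0.722 through a median of 1.41 to 3.205 FPKM, and TIM from 1.20 through 5.38 to 24.7. Every library of the other 3 groups was above every AG library, and 6 of 8 TIM libraries were above every TI library. Group means were 0.214 ± 0.0164 (SD, n = 3) in AG, 3.95 ± 0.385 (n = 5) in AGM, 1.67 ± 0.824 (n = 8) in TI and 7.51 ± 7.55 FPKM (n = 8) in TIM. AGM was 2.03 above AG on the log2 scale (SE 0.50, limma FDR = 0.00428), and TIM 2.40 above AG (SE 0.46, limma FDR = 0.000158). It passed the filter through every group but AG. The exact permutation of RPM left TIM vs AG at an adjusted p = 0.106. TI was 1.08 above AG (SE 0.46, limma FDR = 0.0556). That difference was called after adding 0.1 rather than 1 (limma FDR = 0.00144), when FPKM were recomputed (limma FDR = 0.00213), with only these groups in the fit (limma FDR = 0.00261), without TI library 3 (limma FDR = 0.0463) and by the exact permutation (adjusted p = 0.0303).

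TIM exceeded TI by 1.32 in Ache (SE 0.34, limma FDR = 0.00897), 3.85 times in mean RPM (exact permutation p = 0.00622, adjusted p = 0.0303). Leaving out each library in turn gave 1.03 to 1.54. TIM libraries 1 and 5 had the highest Ache of TIM (10.4 and 24.7 FPKM) and the highest sums of Schwann cell markers (27.0 and 47.5 FPKM against 0.891 to 8.29 in the other 6). Without them the difference was 0.85 (limma FDR = 0.0290). TIM library 5 also had the highest chromaffin marker sum of all libraries (4711 FPKM). TIM vs AGM was 0.37 (SE 0.39, limma FDR = 0.409) and -0.10 without the 2 libraries (limma FDR = 0.773). The part of chromaffin markers, and of sequencing run, in these differences was not tested.

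**Figure D4:**
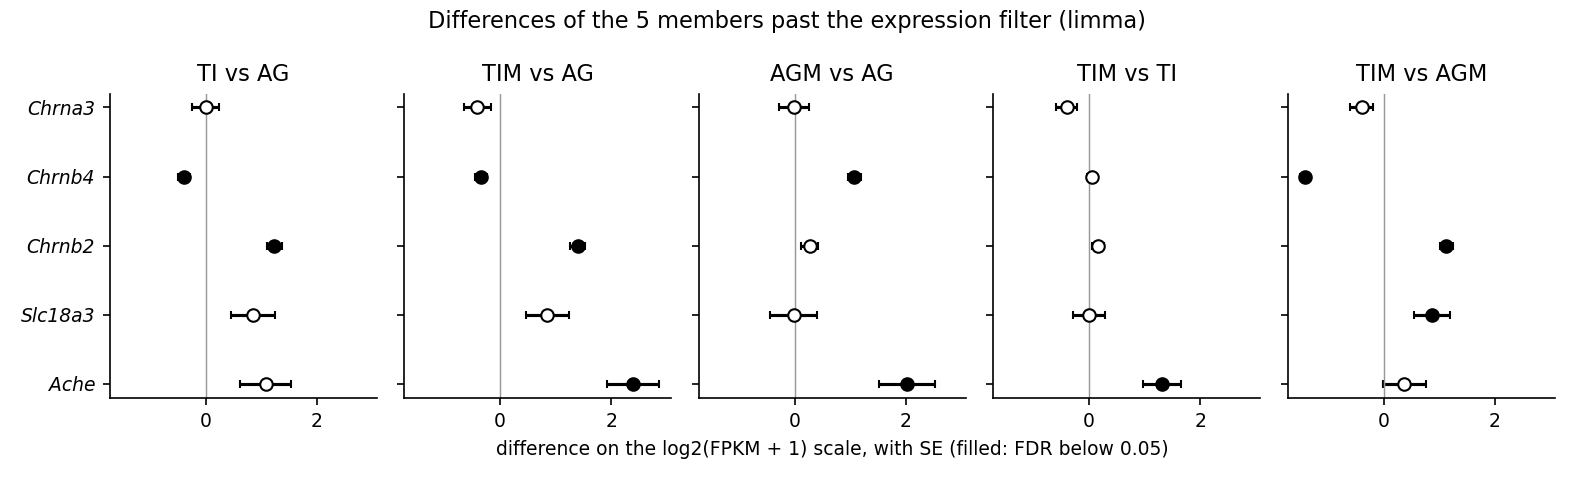
Difference in log2(FPKM + 1) (horizontal axis, bars are the standard error) for the 5 tested members in each of the 5 comparisons, from the limma fit over all 24 libraries, with filled symbols for FDR below 0.05. Chrnb2 is 1.24 and 1.40 higher in TI and TIM than in AG, Chrnb4 is 1.08 higher in AGM and 1.42 lower in TIM than in AGM.

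Counted over the comparisons, 2 of the 5 tested members passed in TI vs AG, Chrnb2 higher and Chrnb4 lower, where 52.4% of all tested genes passed, 24.6% higher and 27.7% lower. In TIM vs AG 3 passed (Chrnb2 and Ache higher, Chrnb4 lower) against 51.0% of all genes, 22.5% higher and 28.5% lower. AGM vs AG gave 2 (Chrnb4 and Ache, both higher) against 28.6%, with 14.6% higher and 14.0% lower. TIM vs TI gave 1 (Ache, higher) against 22.9%, with 10% higher and 12.9% lower. TIM vs AGM gave 3 (Chrnb2 and Slc18a3 higher, Chrnb4 lower) against 65.3%, with 31.9% higher and 33.4% lower. The shares are near the background, and the comparisons that share AG libraries are not independent. The filter was passed by Chrnb2 and Slc18a3 through the tumors alone, by Chrnb4 through AGM alone and by Ache through every group but AG. Calls between those groups and the others were thus to some extent set by the filter. All-gene scaling matters for AGM vs AG. With recomputed FPKM the median of all genes shifted by -0.34 and 21.8% of the calls were higher, and with voom by -0.50 and 14.4%. Higher calls made up 51.2% as deposited and 64.4% with median-of-ratios scaling. Chrnb4 and Ache stayed higher in AGM with recomputed FPKM, at 1.43 and 2.99 (limma FDR = 0.00365 and 0.000472). None of the 108 calls of members and pathway genes turned its direction with another pseudocount, scaling or fit, and 489 of 540 repeats kept the call. With recomputed FPKM the median of all genes also shifted by -0.14 in TIM vs AG, -0.12 in TIM vs TI and 0.24 in TIM vs AGM.

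The order of the 9 levels differed by group. In AG, Chrna3 (mean 1.25 FPKM) led Chrnb4 (0.443), followed by Chrnb2 and Chrna7 at 0.299 and 0.294, which did not differ beyond their spread, then Ache (0.214). In AGM, Ache (3.95) led Chrnb4 (2.06), which was above Chrna3 (1.24) in all 5 libraries. In TI, Chrnb2 (2.09), Ache (1.67), Chrna3 (1.34) and Slc18a3 (1.09) were not separated from their neighbours, with 6, 5 and 5 of 8 libraries in that order. In TIM, Ache (7.51) was above Chrnb2 (2.47) in 7 of 8 libraries, and Chrnb2 above Slc18a3 in all 8. The lowest places went to Slc5a7 in the tumors and Chat in the glands.

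Several of these genes varied widely among the tumors of a group, with a coefficient of variation in TI and TIM of 101% and 92.2% for Slc18a3 and 49.3% and 101% for Ache. After subtraction of the group mean, Chrna3 and Slc18a3 had a Pearson correlation of 0.84 over the 16 tumors, in log2(FPKM + 1), and Spearman rho was 0.857 within TI and 0.881 within TIM. Both values of a point come from the same library and so share its depth and tumor content, and the relation is a description. Chrna3 and its cluster neighbour Chrnb4 had a Pearson correlation of 0.67, with Spearman rho 0.905 within TI and 0.595 within TIM. Chrnb4 had a Pearson correlation of 0.80 with Chat, and Spearman rho was 0.561 within TI and 0.805 within TIM. TI library 6 was the highest of TI for both genes, at 0.405 FPKM of Chrnb4 and 0.506 FPKM of Chat. Its part in the value of 0.80 was not tested. Ache had a Pearson correlation of 0.65 with the noradrenaline enzyme gene Th and -0.69 with the transcription factor gene Tlx3. The tested genes most like Chrna3 were Slc18a3 (0.84), Engase (0.81) and Rhou (0.80). Near to Slc18a3 were Lefty1 (0.87), which had at most 0.09999 FPKM in the tumors, and Chrna3. Ctsb (0.89), Ngfr (0.87) and Asrgl1 (0.85) were nearest to Chrnb4, Cog1 (0.93), Wdr81 (0.92) and Adcy9 (0.92) to Chrnb2, and Arsa (0.96) and Tmem184b (0.95) were near to Ache. Ufsp1, which starts 162 bases after the end of Ache on the same strand, had 0.94 and was named after its value was seen.

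**Figure D5:**
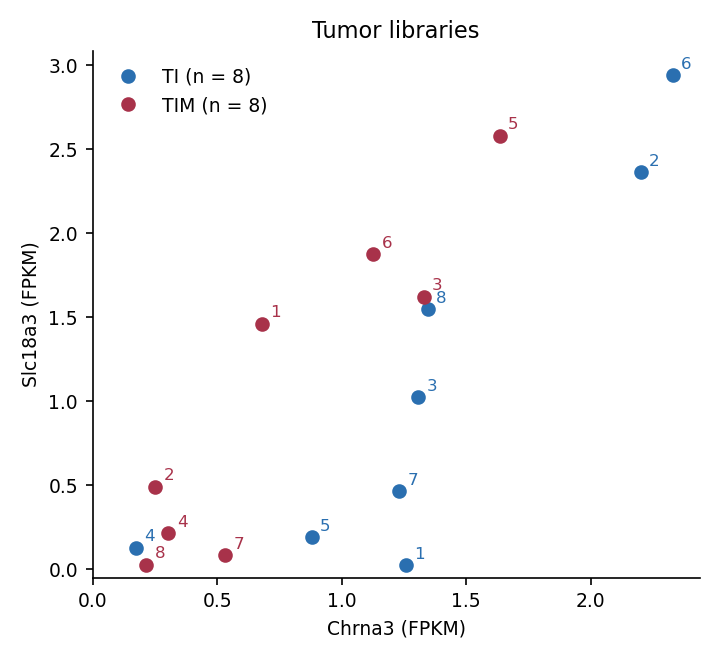
Slc18a3 FPKM (vertical) against Chrna3 FPKM (horizontal) in the 16 tumors, each point a library with its number (TI n = 8, TIM n = 8). Tumors with more Chrna3 had more Slc18a3, with Spearman rho 0.857 in TI and 0.881 in TIM, and TI library 1 had 1.26 FPKM of Chrna3 with 0.0273 of Slc18a3.

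The other nicotinic subunits (11 genes) were mostly near 0, and 3 passed the filter. Chrna4, the α4 partner of β2, fell by 1.01 in TI (SE 0.15, limma FDR = 4.61e-06), 0.99 in TIM and 0.65 in AGM, the last not called with a pseudocount of 0.1 (limma FDR = 0.0670). Chrna2 rose in AGM vs AG by 3.73 (SE 0.68, limma FDR = 0.000236), with a range of 0.00329 to 55.9 FPKM over the 5 AGM libraries, and Chrna10 by 0.92 (limma FDR = 0.00688). With voom on recovered reads neither was called (limma FDR = 0.530 and 0.216). In the tumors Chrna2 and Chrna10 were not called against AG. Chrna4 passed the filter through AG alone, with at least 1.43 FPKM there and at most 0.978 in any other library. Chrna2 passed through AGM alone, with at most 0.00870 FPKM in any other group. The differences of these genes from the other groups were thus to some extent set by the filter. Of the 3 tested, 0 rose and 1 fell in TI vs AG (24.6% and 27.7% of all genes) and in TIM vs AG (22.5% and 28.5%). AGM vs AG had 2 and 1 (14.6% and 14.0%). None of the 3 passed in TIM vs TI (10% and 12.9%). In TIM vs AGM 0 rose and 3 fell (31.9% and 33.4%). Of these, Chrna2 and Chrna4 were not called with voom (limma FDR = 0.205 and 0.0687). None of the 5 muscarinic receptor genes reached the filter, with sums of 0.0835 to 1.01 FPKM.

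Of 12 genes for receptor assembly and Ly6-type modulators, 8 were tested, and TI vs AG had 1 higher and 5 lower, where 24.6% and 27.7% of all genes passed (median log2 difference -0.92, all genes -0.00). TIM vs AG had 2 and 5 (all genes 22.5% and 28.5%, median -0.99), AGM vs AG 1 and 3 (14.6% and 14.0%, median -0.27), and TIM vs TI 0 and 0 (10% and 12.9%). The rise in AGM, that of Lynx1, was not called with a pseudocount of 0.1, with recomputed FPKM or with voom (limma FDR = 0.316, 0.716 and 0.600), nor was that of Ly6h in TI with voom (limma FDR = 0.113). Tmem35a, which codes for the chaperone NACHO of α7 and other neuronal receptors, had means of 64.6 FPKM in AG, 30.2 in AGM, 5.82 in TI and 4.74 in TIM. It fell by 3.35 in TI vs AG (SE 0.31, limma FDR = 5.56e-09). Ly6e, a Ly6 family gene, fell by 1.43 in TI and 1.40 in TIM. Nrn1, which codes for the membrane-anchored neuronal protein neuritin, was 1.92 higher in TIM than AG (limma FDR = 0.0167, and 0.272 with voom), and its difference in TI was 1.05 (limma FDR = 0.185). Ly6h passed the filter through the tumors alone, and Nrn1 through groups other than AG. Their rises against AG were to some extent set by the filter.

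Of 16 other genes of acetylcholine and choline handling, 10 were tested. TI vs AG had 3 higher and 3 lower, where 24.6% and 27.7% of all genes passed, and TIM vs AG 4 and 3 (all genes 22.5% and 28.5%). AGM vs AG had 2 and 1 (14.6% and 14.0%), TIM vs TI 0 and 2 (10% and 12.9%), and TIM vs AGM 4 and 3 (31.9% and 33.4%). In most of these the counts are near the shares of all genes. Their median log2 difference was -0.01, 0.07, 0.08, -0.04 and 0.13 in that order. Acly, the enzyme that makes cytosolic acetyl-CoA, fell by 1.98 in TI, 2.58 in TIM and 0.95 in AGM vs AG, and TIM was 0.60 below TI (SE 0.15, limma FDR = 0.00652). Slc10a4, a vesicular protein of cholinergic and monoaminergic neurons, was 1.56 higher in TI than AG (SE 0.24, limma FDR = 1.14e-05) and 1.48 higher in TIM. Mat2a, which makes the methyl donor S-adenosylmethionine, rose by 0.98 in TIM vs AG (limma FDR = 0.00561). Prima1, the membrane anchor of acetylcholinesterase, was named after its values were seen: it was 2.36 above AG in TI and 1.49 in TIM, and 0.87 lower in TIM than TI (SE 0.30, limma FDR = 0.0419), the opposite sign to Ache. That last call was lost under each of 5 alternatives (limma FDR 0.0519 to 0.118), and with voom the calls against AG were lost too (limma FDR = 0.0577 and 0.164). Prima1 had at most 0.388 FPKM in the glands and passed the filter through the tumors alone. Its differences from AG were thus to some extent set by the filter.

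Of 10 neighbours of the Chrna5-Chrna3-Chrnb4 cluster 8 were tested. In TI vs AG 0 rose and 2 fell (24.6% and 27.7% of all genes), in TIM vs AG 0 rose and 3 fell (22.5% and 28.5%), and in TIM vs TI 2 rose and 0 fell (10% and 12.9%). In AGM vs AG 3 rose and 1 fell (14.6% and 14.0%), and with voom none of the 3 rises was called (limma FDR = 0.0616 for Crabp1, 0.185 for Rasgrf1 and 0.535 for Ctsh, which was also not called with a pseudocount of 0.1 or recomputed FPKM). With voom or with only these groups in the fit, neither rise in TIM vs TI was called (limma FDR 0.0892 to 0.256). Crabp1, Rasgrf1 and Ctsh were named after their values were seen. The proteasome subunit gene Psma4 and the chromatin gene Morf4l1 were not called in any comparison. Acsbg1, an acyl-CoA synthetase gene, fell by 2.69 in TI vs AG (SE 0.48, limma FDR = 5.56e-05) and 1.68 in TIM, the latter not called with only these groups in the fit (limma FDR = 0.0645).

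Lineage transcription factors (15 genes) were mostly higher in tumors. Of 11 tested, 7 rose and 0 fell in TI vs AG and again in TIM vs AG, where 24.6% and 22.5% of all genes rose. In AGM vs AG 3 rose (all genes 14.6%), of which 2 were not called with voom (limma FDR = 0.0773 and 0.126), and in TIM vs TI 1 rose and 3 fell (10% and 12.9%). Hand2, a determinant of sympathetic neurons, was 2.68 higher in TI (SE 0.24, limma FDR = 2.34e-09), 2.46 in TIM and 1.23 in AGM than in AG. Phox2a, another transcription factor of the lineage, was 2.82 higher in TI (SE 0.65, limma FDR = 0.000913) and fell by 1.47 in TIM vs TI (SE 0.48, limma FDR = 0.0310, and 0.0943 with only these groups in the fit).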

How the data were processed

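Strand-specific libraries of poly(A) RNA were made from frozen tissue. Per the study's methods and the submitters' processing notes, the authors trimmed reads with cutadapt 2.8, aligned them with HISAT2 2.1.0 to mm39, used SAMtools 1.10 and featureCounts 2.0.0, corrected counts by sequencing run with ComBat-seq, and normalized them by TMM in edgeR 3.40. The deposited unit is FPKM. The deposited table also holds the authors' log2 fold changes, p-values and FDR against AG, which were not used. No per-sample column was left unused (0).

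FPKM times gene length gave whole multiples of 1 step for 100% of values within a tolerance of 0.01, and these recovered reads, which follow the authors' correction, gave reads per 1000000 reads (RPM) outside genes above 1000 FPKM. Log2(FPKM + 1) of genes that reached 1 FPKM in 3 or more libraries was fitted over all 24 libraries with limma 3.58.1 in R 4.3.3 (eBayes with trend, two-sided, Benjamini-Hochberg FDR below 0.05), a procedure tested on simulated data. Members below the filter were compared by exact two-sided permutation of mean RPM, adjusted over 5 comparisons. Python 3.11.15 and SciPy 1.17.1 were used. Alternatives were another pseudocount, filter, scaling and fit, and leaving out each library. Within groups, no pair of libraries agreed within sampling noise (lowest chi-square per degree of freedom 10.5).

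Named were all members, up to 3 tested genes per pathway list with the highest mean, and the 3 tested genes most correlated with each tested member over 16 tumors, and some of these are not reported here. The members and lists were chosen with earlier results of these data known. Positions are GRCm39 with GENCODE annotation.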

Additional observations from a re-analysis of the deposited data

Results flagged for a closer look

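In 27 sets of a member in a group of 4 to 10 libraries, 6 had 1 library far from the others, in each case the highest. Chance flags about 1 in 20 sets of normally distributed values. Untransformed FPKM of low genes need not be so distributed, so that rate cannot be applied to these sets. TI library 6 was the far one for 3 genes, with Chrnb4 at 0.405 FPKM, Chat at 0.506 FPKM and Slc5a7 at 0.0874 FPKM. TI library 1 was far above the others for Chrnb2, at 2.997 FPKM. In TIM, library 3 was far for Chrna5, at 0.226 FPKM, and library 5 for Ache, at 24.7 FPKM. The change of Ache against AG differed between the tumor groups, TIM exceeding TI by 1.32 on the log2(FPKM + 1) scale in the limma fit (FDR = 0.00897).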

How the results depend on the processing

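The count of members called in TI vs AG was 2, and 4 with a pseudocount of 0.1 and with FPKM recomputed outside the genes above 1000 FPKM, Ache and Slc18a3 being the additions in both. Leaving out each library in turn gave 2 to 3 members in TI vs AG, 3 to 4 in TIM vs AG, 2 to 2 in AGM vs AG, 1 to 2 in TIM vs TI and 3 to 4 in TIM vs AGM, and 0 to 0 calls among members below the filter. In TIM vs TI the count was 2 without TI library 4, which added Chrna3, and without TIM library 8, which added Chrnb2. Member by member, 188 of 210 values under the other alternatives and 492 of 531 with a library left out kept their direction and side of the threshold, and none that was called turned its direction. Where a call was lost or gained, the cause was not tested. A filter of at least 1 FPKM in every library left no member to test. Over all genes, AGM vs AG had 2908 calls, 5863 with recomputed FPKM, 6312 with only these groups in the fit and 569 under that filter, with which the other comparisons fell to 1627 in TI vs AG, 1534 in TIM vs AG, 737 in TIM vs TI and 1944 in TIM vs AGM. TIM vs TI had 2332 calls, 3595 with recomputed FPKM and 1309 with only these groups. Calls in the higher direction made up 43.6% of TIM vs TI, 22.7% with voom and 55.3% with median-of-ratios scaling, 44.2% of TIM vs AG against 31.5% with voom, and 48.8% of TIM vs AGM against 60.5% with voom. The exact permutation for members past the filter and the fit without TIM libraries 1 and 5 were chosen after seeing the data. No paired analysis was possible because the columns carry no replicate numbers that match the labels. With 3 AG libraries, the exact test against 5 AGM libraries cannot give a p below 0.0179.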
